A study of Homo sapiens with 12 samples.

Results

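BCL2 family genes and the death-associated kinase gene DAPK1 were followed across HuR knockout and wild-type Jurkat cells, at rest and after activation. The 7 genes, BMF, BID, BIK, HRK, BOK, BCL2A1 and DAPK1, were picked by symbol and are 7 of the 2587 genes in the authors' deposited table. Jurkat is an established human line from a T-cell acute lymphoblastic leukaemia. HuR, the product of ELAVL1, is an RNA-binding protein with a preference for mRNA stretches rich in A and U or in U alone. Poly(A) RNA was sequenced from 12 libraries in 4 groups of 3. HuRKO cells and WT cells were each activated for 24 h with PMA, a phorbol ester, at 20 ng/mL plus ionomycin at 500 ng/mL, and HuRKO and WT cells left untreated served as the resting groups. PMA switches on protein kinase C and ionomycin lets calcium into the cell, and together they imitate stimulation of the T-cell receptor. How the knockout was made, and whether the HuRKO cells are 1 clone, is not given in the sources used here, so the loss of HuR and other differences between the 2 cell populations cannot be told apart. The series is titled as a study of how HuR acts on apoptosis and on activation.

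Proteins of the BCL2 family decide whether the outer mitochondrial membrane becomes leaky, the step that commits a cell to intrinsic apoptosis. Pro-survival members such as BCL2A1 hold the pore-forming effectors in check, and the BH3-only proteins (BID, BIK, BMF and HRK here) promote death by binding pro-survival members or, for BID, by activating effectors directly. BOK resembles the effectors BAX and BAK1. DAPK1 is a calcium- and calmodulin-regulated serine/threonine kinase that promotes cell death and stands outside the BCL2 family. In lymphocytes the balance between these proteins is known to shift during activation and to set how many cells survive it.

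The table is a selection: in 1 or more of its 4 comparisons each gene has a false discovery rate (FDR) under 0.05 and a change over 4-fold, so each of the 7 had to change somewhere. BCL2A1 and DAPK1 passed these limits in 3 comparisons, BMF, BID and BOK in 2, and BIK and HRK in 1. HRK lay closest to the limit, with a log2 change of 2.02 in the authors' deposited table at rest. Of 24 BCL2 family names fixed for the search, 6 are in the table, and the other 18, among them BCL2, MCL1, BAX and BCL2L11, were not analysed here. Levels below are group means in normalised counts, rebuilt from the deposited mean over all libraries and the deposited fold changes. They carry no spread between replicates, and the depth of each library is unknown. The floor is 3 counts over the 3 libraries of a group, or a level of 1, and all 28 levels of the 7 genes lie above it on base 2. On base e, 3 of them would lie below it (BOK in activated WT cells and BCL2A1 in both resting groups). A standard error given as "at most" is the upper bound that the deposited FDR allows under a normal approximation. Changes of RNA per cell and of cell numbers cannot be told apart in bulk libraries.

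The targeted gene ELAVL1 was at 471 in activated HuRKO cells against 2552 in activated WT cells, and at 596 in resting HuRKO cells against 4042 in resting WT cells. Other features of the table also moved with genotype. Of 17 listed chromosome Y genes, 16 were lower in HuRKO cells both at rest and after activation. Of 52 listed genes annotated as small non-coding RNAs, 45 fell and 2 rose in HuRKO cells after activation, and 23 fell at rest. Of 12 T-cell marker names, 4 are in the table. After activation 1 of them was higher and 2 were lower in HuRKO cells. At rest 0 were higher and 3 lower: TRAC 6.36-fold (FDR 2.2e-153 in the authors' deposited table), CD2 4.63-fold (FDR 1.5e-82) and CD7 1.60-fold (FDR 0.00016). The summed level of the 4 was 28016 in activated HuRKO, 26577 in activated WT, 4841 in resting HuRKO and 10655 in resting WT cells. TRAC makes up most of this sum in the activated groups alone. In activated HuRKO cells the authors' deposited table has CD28 6.74-fold higher (FDR 1.4e-107) and CD2 3.27-fold lower (FDR 7.8e-51). The 2 listed erythroid markers, HBA1 and HBA2, summed to 54.3 in activated HuRKO, 4.46 in activated WT, 48.1 in resting HuRKO and 2.95 in resting WT cells. The 1 listed B-cell marker, CD79B, was at 17.2, 19.8, 10.1 and 1.41 in the same order of groups, and higher in resting HuRKO cells (FDR 0.0082 in the authors' deposited table). The 1 listed monocyte marker, CSF1R, was at 31.5 in activated HuRKO and 7.11 in activated WT cells (FDR 0.0072 in the authors' deposited table), and below the floor at rest. Of 5 natural killer cell names, 3 are in the table, with summed levels of 200.4, 149, 33.5 and 12.9 in the same order of groups. They did not move together. In the authors' deposited table NCAM1 was higher in activated HuRKO cells (FDR 0.00023) and KLRF1 lower (FDR 0.043). KLRD1, at 165 in activated HuRKO and 116 in activated WT cells, was not called there (FDR 0.18). At rest only NCAM1 was called, higher in HuRKO cells (FDR 0.00064). None of 4 epithelial names is in the table. The part of these differences in the results was not tested.

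**Figure D1:**
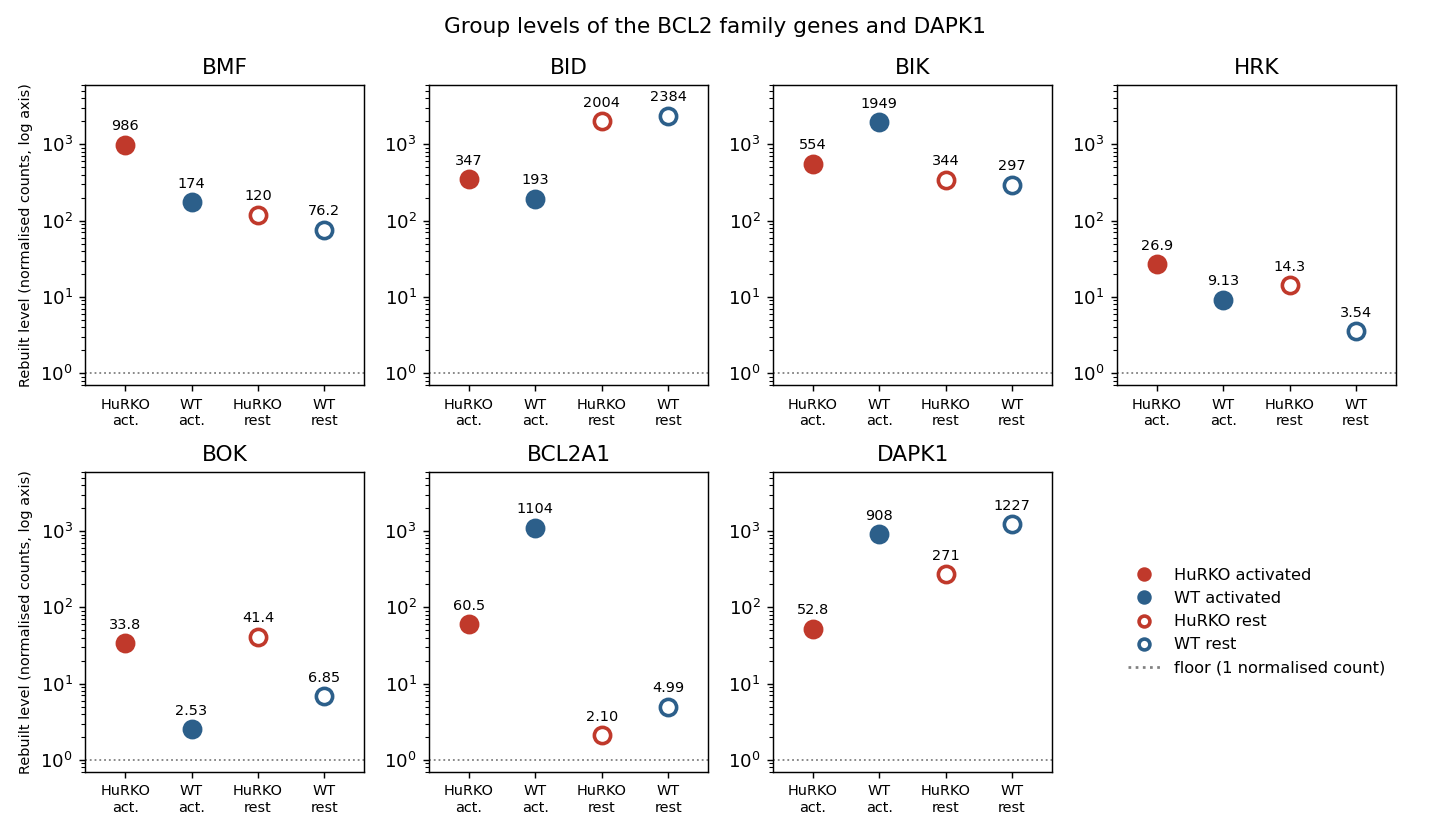
Each panel shows 1 gene, with its rebuilt level in normalised counts on a log axis for activated HuRKO, activated WT, resting HuRKO and resting WT cells (filled: activated, open: rest, dotted line: the floor of 1). BMF is highest in activated HuRKO cells at 986, BIK and BCL2A1 are highest in activated WT cells at 1949 and 1104, and DAPK1 is lowest in activated HuRKO cells at 52.8.

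BMF encodes a BH3-only protein that is held at the cytoskeleton and released under stress. Its mRNA was far more abundant in activated HuRKO cells than in any other group. The level was 986 in activated HuRKO cells and 174 in activated WT cells, and 120 in resting HuRKO cells and 76.2 in resting WT cells. In the authors' deposited table this was a rise of 2.50 on the log2 scale with genotype after activation (standard error at most 0.18, FDR 3.2e-46) and of 0.66 at rest (standard error at most 0.25, FDR 0.0074). As folds, BMF rose 5.67-fold and 1.58-fold. Activation raised BMF in both genotypes, by 8.21-fold in HuRKO cells (FDR 6.4e-64 in the authors' deposited table) and by 2.28-fold in WT cells (FDR 9.1e-09). BMF is in the table through its genotype change after activation and its HuRKO change on activation. A call among these was thus fixed by the selection. In the order of levels, activated WT and resting HuRKO cells are neighbours that differ by 1.45-fold with no deposited test between them.

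BMF (ENSG00000104081.13) lies on the minus strand of chromosome 15 (chr15:40087890-40108892, hg38, GENCODE 29). The span of its annotated antisense gene BMF-AS1 overlaps that of BMF, introns included, by 555 bases. Overlap of exons was not measured, and the strand setting of the counting is not given in the sources used here. Whether reads of BMF-AS1 were counted for BMF is therefore not known. The longest annotated 3′ untranslated region (UTR) of BMF has 3897 bases and 5 matches to AUUUA, the core of AU-rich elements. They are shown because HuR binds such elements, with the match in capitals and in DNA letters, 5′ to 3′ on the strand of the gene.
BMF match 1, chr15:40089687-40089711: aaccgggattATTTAcagcagccac
BMF match 2, chr15:40089620-40089644: agagaaaatgATTTAgatcttggtg
BMF match 3, chr15:40089410-40089434: ccagggcaaaATTTAcacccctcac
BMF match 4, chr15:40089125-40089149: ggagaatcagATTTAgagggaggga
BMF match 5, chr15:40087890-40087911: taataaaatcATTTAaagcaaa
The first begins 2086 bases after the stop codon and the last 3886 bases after it, close to the end of the transcript. No pair of them overlaps.

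BID encodes the BH3-only protein that is cleaved by caspase-8 and carries a death-receptor signal to mitochondria. Its level differed mainly with activation. BID was at 347 in activated HuRKO cells against 193 in activated WT cells, and at 2004 in resting HuRKO cells against 2384 in resting WT cells. Both resting groups thus lie above both activated groups. Activation lowered BID 5.77-fold in HuRKO cells (FDR 3.1e-74 in the authors' deposited table) and 12.3-fold in WT cells (FDR 9.2e-139). BID is in the table through its changes on activation alone, so a call among these was fixed by the selection. After activation BID was 1.80-fold higher in HuRKO cells, a log2 change of 0.85 in the authors' deposited table (standard error at most 0.16, FDR 6.2e-08). At rest the log2 change in the authors' deposited table was -0.25 (standard error at most 0.18, FDR 0.17), which did not pass. BID (ENSG00000015475.18, chr22:17734138-17774770, minus strand, hg38) has a 3′ UTR of up to 1442 bases with 2 AUUUA matches.

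BIK encodes a BH3-only protein of the endoplasmic reticulum. It was induced by activation mainly in WT cells. BIK was at 554 in activated HuRKO cells against 1949 in activated WT cells, and at 344 in resting HuRKO cells against 297 in resting WT cells. Activated WT cells stand apart from the other groups. In the authors' deposited table BIK fell by 1.81 on the log2 scale in activated HuRKO cells (standard error at most 0.13, FDR 4.7e-43), or 3.52-fold, and differed by 0.21 at rest (standard error at most 0.21, FDR 0.32). Activation raised it 1.61-fold in HuRKO cells (FDR 1.3e-06 in the authors' deposited table) and 6.56-fold in WT cells (FDR 1.5e-88). BIK is in the table through this WT change alone, so its call on activation in WT cells was fixed by the selection. BIK (ENSG00000100290.2, chr22:43110748-43129712, plus strand, hg38) has the second shortest 3′ UTR of the 7 genes, 407 bases with 1 AUUUA match, 110 bases after the stop codon and next to a run of T.
BIK match 1, chr22:43129405-43129429: gcctttttatATTTAaaccccgaga

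HRK, or harakiri, encodes a BH3-only protein best known from neurons, and its mRNA was scarce. It was at 26.9 in activated HuRKO cells against 9.13 in activated WT cells, and at 14.3 in resting HuRKO cells against 3.54 in resting WT cells. Both HuRKO groups lie above both WT groups, but resting HuRKO and activated WT cells differ by 1.57-fold with no deposited test between them. HRK rose 2.94-fold in activated HuRKO cells (FDR 0.0058 in the authors' deposited table) and 4.04-fold in resting HuRKO cells (FDR 0.012). The standard errors of these changes are at most 0.56 and 0.80 on the log2 scale. Activation gave log2 values of 0.91 in HuRKO cells (FDR 0.095 in the authors' deposited table) and 1.37 in WT cells (FDR 0.079), which did not pass. HRK (ENSG00000135116.9, chr12:116856144-116881441, minus strand, hg38) has the longest 3′ UTR of the 7 genes, with 5379 bases and 8 AUUUA matches.

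BOK, the relative of the pore-forming effectors, was the member with the largest rise in HuRKO cells in both genotype comparisons. Its level was 33.8 in activated HuRKO cells against 2.53 in activated WT cells, and 41.4 in resting HuRKO cells against 6.85 in resting WT cells. Both HuRKO groups lie well above both WT groups, which are near the floor. In the authors' deposited table the log2 changes were 3.74 after activation (standard error at most 0.69, FDR 7.1e-08) and 2.59 at rest (standard error at most 0.58, FDR 8.6e-06). These are rises of 13.4-fold and 6.04-fold. BOK is in the table through its genotype changes alone, so a call among these was fixed by the selection. The log2 changes on activation in the authors' deposited table, -0.29 in HuRKO cells (FDR 0.57) and -1.44 in WT cells (FDR 0.088), did not pass. BOK (ENSG00000176720.5, chr2:241551424-241574138, plus strand, hg38) is overlapped over 7554 bases, introns included, by the span of its antisense gene BOK-AS1. The exons of BOK cover 2711 bases, and overlap of exons was not measured. Without the strand setting, whether reads of BOK-AS1 were counted for BOK is not known. The 3′ UTR of BOK, of up to 1716 bases, holds 0 AUUUA matches and is the poorest of the 7 in U, at 17.6%.

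BCL2A1 is the pro-survival member, known as a target of NF-kB in activated lymphocytes. It was near the floor at rest and abundant after activation, with a much lower level in activated HuRKO cells. The level was 60.5 in activated HuRKO cells against 1104 in activated WT cells, and 2.10 in resting HuRKO cells against 4.99 in resting WT cells. In the authors' deposited table BCL2A1 fell by 4.19 on the log2 scale in activated HuRKO cells (standard error at most 0.37, FDR 4.9e-29), which is 18.2-fold and the largest fall among the 7 genes. At rest the log2 value in the authors' deposited table was -1.25 (standard error at most 1.17, FDR 0.28), which did not pass. Activation raised BCL2A1 28.9-fold in HuRKO cells (FDR 1.4e-11 in the authors' deposited table) and 221-fold in WT cells (FDR 1.2e-48). Both folds start from levels near the floor, so their sizes are loosely fixed, with standard errors of at most 0.72 and 0.53 on the log2 scale. BCL2A1 (ENSG00000140379.7, chr15:79960889-79971446, minus strand, hg38) has the shortest 3′ UTR of the 7 genes, 267 bases with 0 AUUUA matches.

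DAPK1 was lower in HuRKO cells in both states and was lowest after activation. It was at 52.8 in activated HuRKO cells against 908 in activated WT cells, and at 271 in resting HuRKO cells against 1227 in resting WT cells. Both WT groups lie above both HuRKO groups. By the authors' deposited table DAPK1 fell by 4.10 on the log2 scale after activation (standard error at most 0.16, FDR 2.6e-143) and fell by 2.18 at rest (standard error at most 0.13, FDR 6.9e-64), that is 17.2-fold and 4.52-fold. Activation lowered it 5.14-fold in HuRKO cells (FDR 5.5e-45 in the authors' deposited table) and 1.35-fold in WT cells (FDR 0.00078). DAPK1 is the only 1 of 5 names of the DAP kinase family in the table. The gene (ENSG00000196730.12, chr9:87497228-87708633, plus strand, hg38) contains the intronic transcript DAPK1-IT1 and a processed pseudogene, AL161787.1, both on its own strand and neither in the table. Its longest 3′ UTR has 1269 bases, 35.6% U and 3 AUUUA matches.
DAPK1 match 1, chr9:87707749-87707773: aaaagtgcatATTTAtccaaaatgt
DAPK1 match 2, chr9:87707860-87707884: ccactgtatgATTTAtaaacagaca
DAPK1 match 3, chr9:87708324-87708348: tggtttccacATTTAgatcctggtt
These begin 395, 506 and 970 bases after the stop codon. None of the 3 lies within 30 bases of another.

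AUUUA matches were about as dense in the 7 genes as in the table at large. The motif, searched on the sense strand with overlaps allowed, was found in the longest 3′ UTR of 69.0% of the 1828 listed protein-coding genes with such a UTR. It was found in 5 of the 7 genes. Their density ranged from 0 in BOK and BCL2A1 to 2.46 per kb in BIK and 2.36 per kb in DAPK1, against a median of 1.37 per kb over the listed genes (quartiles 0 and 2.83). BMF, BID and HRK had 1.28, 1.39 and 1.49 per kb. IL2, a cytokine mRNA with a known AU-rich element, had 24.8 per kb. The motif is absent from 1 of the 4 genes that rose in activated HuRKO cells, BOK, and from 1 of the 3 that fell, BCL2A1. A match is a run of letters and not a binding site, and the transcripts used by these cells are not known from gene counts.

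In activated cells all 7 genes were called between genotypes, as were 77.6% of all listed genes. In HuRKO cells 4 were higher (BMF, BID, HRK and BOK) and 3 lower (BIK, BCL2A1 and DAPK1), where 42.2% of all listed genes were called higher and 35.4% lower. Of the 4 BH3-only genes 3, and the effector-like gene, were thus among those that rose. The pro-survival gene was among those that fell, and the BH3-only gene BIK and the death-promoting kinase gene DAPK1 fell too. At rest 4 of the 7 were called, against 40.5% of all listed genes. BMF, HRK and BOK were higher and DAPK1 was lower, against 25.0% and 15.4% of all listed genes. The median log2 change of the 7 genes was 0.85 after activation and 0.21 at rest, against 0.36 and 0.18 over all listed genes. The members spread widely around these medians, from -4.19 for BCL2A1 to 3.74 for BOK after activation, and their counts are not set apart from those of the table. The 2 genotype comparisons use separate libraries. BMF, HRK, BOK and DAPK1 were called in both states and in the same direction, as were 706 of the 865 listed genes called in both. HRK is in the table through its resting change alone, so its call at rest was fixed by the selection.

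**Figure D2:**
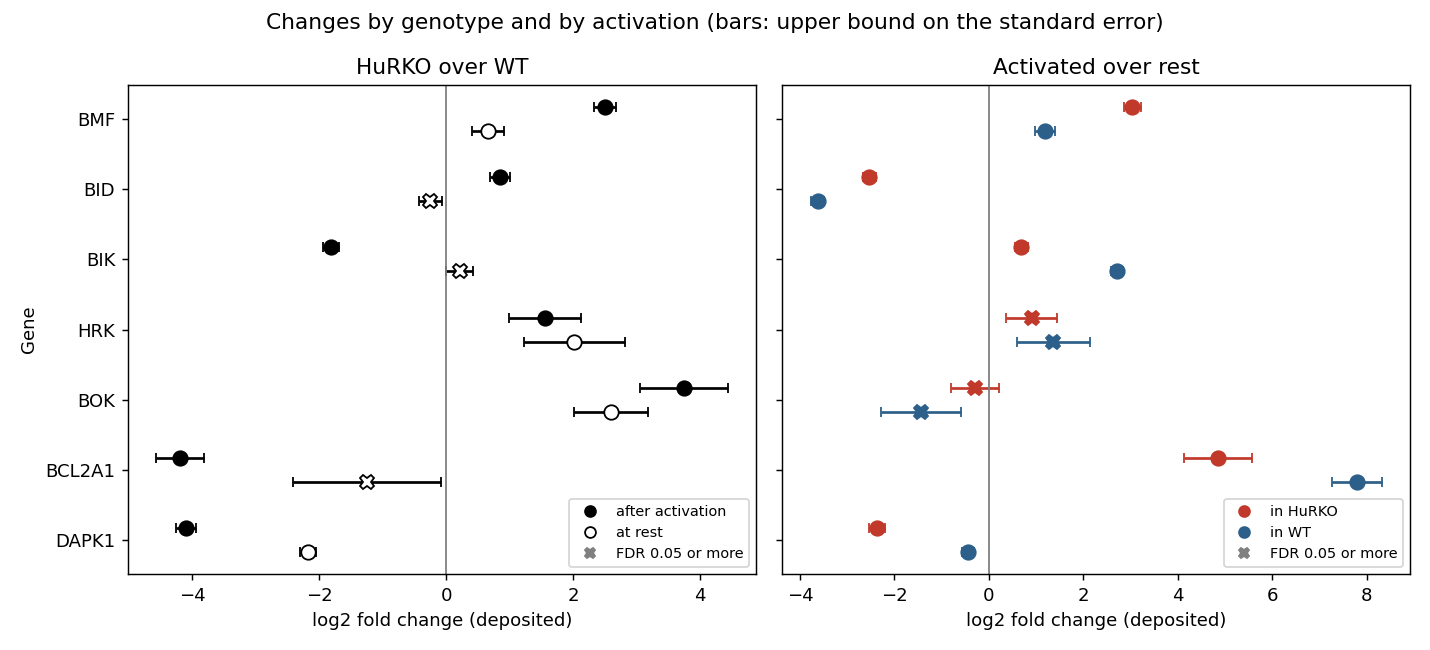
Points are deposited log2 fold changes of the 7 genes, HuRKO over WT on the left (filled: after activation, open: at rest) and activated over rest on the right (red: HuRKO, blue: WT), and bars are the upper bound on the standard error. Crosses mark an FDR of 0.05 or more. The widest bar is that of BCL2A1 at rest, with a bound of 1.17, and BOK and HRK have wide bars too. DAPK1 stands at -4.10 after activation and -2.18 at rest.

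Activation moved the same 5 genes in both genotypes and in the same direction. BIK, BMF and BCL2A1 rose, BID and DAPK1 fell, and HRK and BOK passed in neither genotype. Activation called 5 of the 7 in each genotype, against 76.7% of all listed genes in HuRKO cells (58.1% higher and 18.5% lower) and 73.9% in WT cells (52.0% higher and 21.8% lower). Agreement in direction is common in the table, where 1323 of 1519 genes called in both genotypes moved the same way. The difference between the responses, HuRKO minus WT on the log2 scale, was set against the standard error bound that the deposited FDRs give. It was called where it reached 4.92 times that bound, the value that a 2-sided normal test needs at 0.05 after Bonferroni correction over the 58780 genes of GENCODE 29. The call was made for 4 of the 7 genes, against 20.2% of all listed genes (9.78% with a larger and 10.4% with a smaller value in HuRKO cells). The normal approximation was not checked at 3 libraries a group.

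BMF responded more strongly in HuRKO cells, with log2 changes of 3.04 in HuRKO and 1.19 in WT cells. The difference was 1.85 (standard error at most 0.27, a ratio of 6.73). The 2 changes that brought BMF into the table both involve activated HuRKO cells and are part of this difference. The selection therefore favours a large value. DAPK1 fell further in HuRKO cells, with log2 changes of -2.36 in HuRKO and -0.44 in WT cells and a difference of -1.93 (standard error at most 0.21, a ratio of 9.33). BIK was induced less in HuRKO cells, with log2 changes of 0.69 in HuRKO and 2.71 in WT cells and a difference of -2.03 (standard error at most 0.20, a ratio of 10.3). The WT change that brought BIK into the table is part of this difference, so the selection favours a large value. BID fell less in HuRKO cells, with log2 changes of -2.53 in HuRKO and -3.63 in WT cells and a difference of 1.10 (standard error at most 0.20, a ratio of 5.47). The call for BID is lost when the larger of the 2 bounds on its variance is used, which gives a ratio of 4.54.

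BCL2A1 had the largest difference of the 7 genes, -2.94, with log2 changes of 4.85 in HuRKO and 7.79 in WT cells. It was not called (standard error at most 0.89, a ratio of 3.29), and its resting levels are close to the floor. HRK and BOK had differences of -0.46 (standard error at most 0.95) and 1.14 (standard error at most 0.91), and were not called. Because the bounds can be much larger than the true standard errors, a gene that did not pass is not shown to respond alike in both genotypes.

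**Figure D3:**
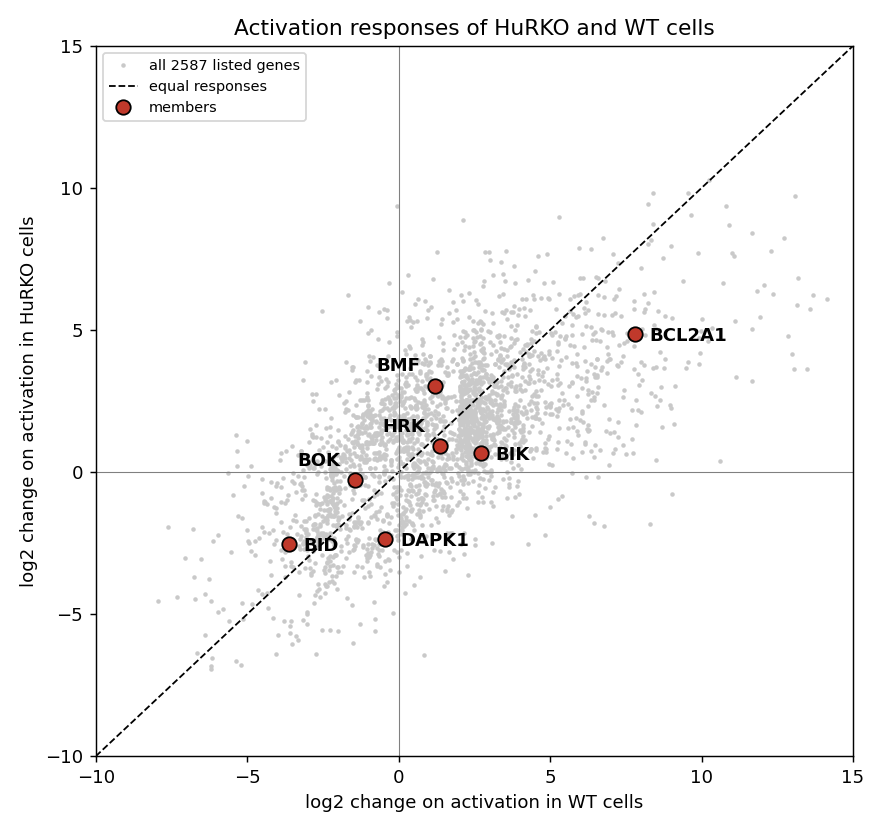
The log2 change on activation is shown for WT cells (horizontal) and HuRKO cells (vertical), with grey points for all 2587 listed genes, red points for the 7 members and a dashed line for equal responses. BMF, BID and BOK lie above the line, and DAPK1, BIK, HRK and BCL2A1 below it.

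Per kb of exon sequence, the mix of the 4 BH3-only mRNAs differed between groups. BIK made up 68.9% of their summed level in activated HuRKO cells and 96.4% in activated WT cells. BMF made up 21.4% in activated HuRKO cells and 1.5% in activated WT cells. Without division by length, BMF at 986 exceeded BIK at 554 in activated HuRKO cells. Which gene leads in that group thus depends on the lengths used, 5447 bases for BMF and 953 for BIK. At rest BID was the most abundant, with 53.9% of the sum in HuRKO and 62.2% in WT cells. The sum itself was 845 normalised counts per kb in activated HuRKO cells against 2122 in activated WT cells, and 836 in resting HuRKO cells against 863 in resting WT cells. The pro-survival mRNA BCL2A1 was at 55.6 per kb in activated HuRKO and 1014 per kb in activated WT cells, and at 1.92 and 4.58 per kb in resting HuRKO and resting WT cells. DAPK1, a long mRNA, was at 5.93 and 102 per kb in activated HuRKO and activated WT cells. BOK and HRK were at or below 15.3 per kb in all groups. These shares hold for the listed genes alone, use the union of all annotated exons as length, and carry no error.

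**Figure D4:**
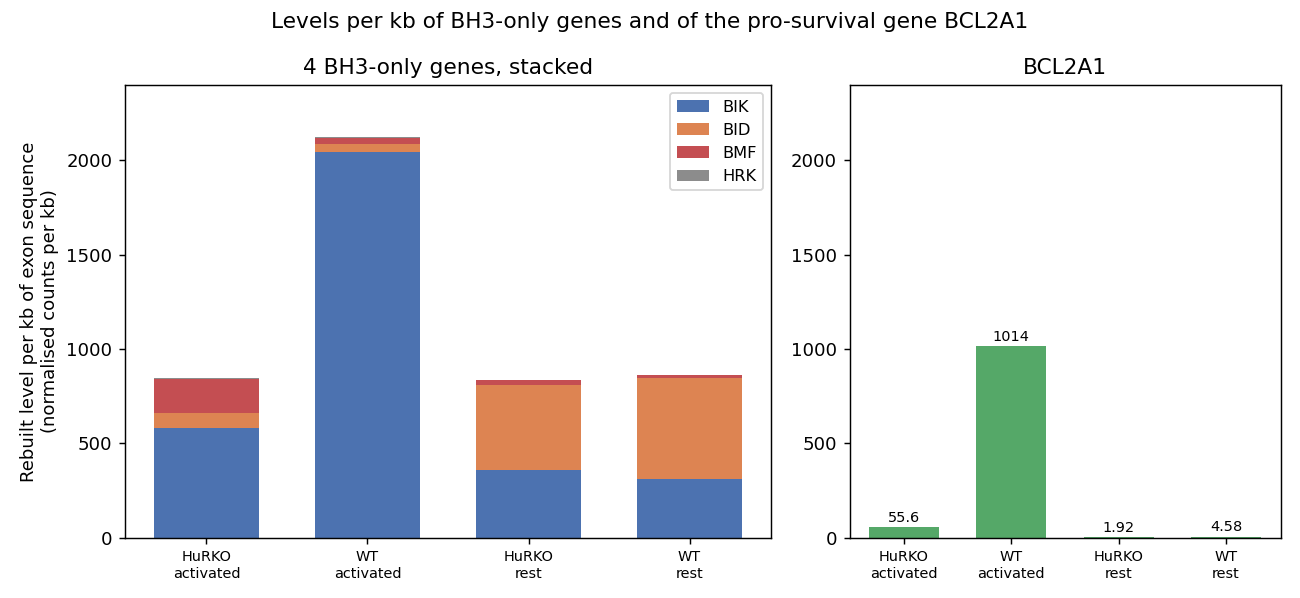
Bars are rebuilt levels per kb of exon sequence in activated HuRKO, activated WT, resting HuRKO and resting WT cells, stacked over 4 BH3-only genes on the left and for BCL2A1 on the right, on the same axis from 0. The stack reaches 2122 in activated WT cells, where nearly all of it is BIK, and lies between 836 and 863 in the other groups.

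Other genes of the pathway were read from fixed lists. None of 17 names for caspases and the apoptosome, and none of 7 further BCL2-like names, was among the listed genes. Of 13 names for death receptors, their ligands and adaptors, 5 are in the table, of which 1 rose and 2 fell in HuRKO cells after activation, and 1 rose and 0 fell at rest. Over all listed genes the shares were 42.2% higher and 35.4% lower after activation, and 25.0% and 15.4% at rest. CFLAR, which blocks caspase-8, was at 1557 in activated HuRKO and 4919 in activated WT cells, and its response to activation differed by -1.49 on the log2 scale, HuRKO minus WT (standard error at most 0.15, called). TNFRSF25, a death receptor of lymphocytes, was at 125 in activated HuRKO and 309 in activated WT cells. Its difference in response was -1.88 (standard error at most 0.35, called). CFLAR and TNFRSF25 are in the table through their WT change on activation alone. That change is part of each difference, so the selection favours a smaller response in HuRKO cells. TNFSF10, the death ligand TRAIL, rose 18.6-fold on activation in HuRKO cells and 18.6-fold in WT cells, and was 1.42-fold higher in activated HuRKO than in activated WT cells (FDR 0.0054 in the authors' deposited table). The ligand gene FASLG was at 21.8 in activated HuRKO and 9.53 in activated WT cells and did not pass between genotypes (FDR 0.14 in the authors' deposited table). The decoy receptor gene TNFRSF10C was at 6.56 in activated HuRKO and 6.74 in activated WT cells, and at 11.2 in resting HuRKO and 2.61 in resting WT cells (FDR 0.043 at rest in the authors' deposited table).

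The listed genes of NF-kB subunits and inhibitors were induced by activation and were lower in activated HuRKO cells. NF-kB activity was not measured, and a link between these genes and BCL2A1 was not tested. Of 9 names for subunits and inhibitors 5 are in the table, and all 5 rose on activation in both genotypes, fell in activated HuRKO cells and were not called at rest. Of all listed genes, 35.4% fell in activated HuRKO cells and 40.5% were called at rest. On activation 58.1% of them rose in HuRKO cells and 52.0% in WT cells. REL was at 788 in activated HuRKO and 2486 in activated WT cells, NFKB2 at 3006 and 6686, and RELB at 1010.3 and 1691 in the same order. NFKBIE, an inhibitor, was at 620.3 in activated HuRKO and 1315 in activated WT cells, and TNFAIP3, which ends NF-kB signalling, at 6766 and 8239. The activation response was smaller in HuRKO cells for REL (difference -1.51, a ratio of 7.48 to its bound), NFKB2 (-1.23, ratio 7.41), RELB (-1.08, ratio 5.20) and NFKBIE (-1.26, ratio 4.99). TNFAIP3 was not called (-0.12, ratio 0.79). BIRC3, 1 of 7 inhibitor of apoptosis names in the table, was at 1043 in activated HuRKO and 3825 in activated WT cells (difference in response -1.39, ratio 6.63). FOXO1, 1 of 4 FOXO names in the table and a factor linked to cell survival and quiescence, was at 169 in activated HuRKO and 467 in activated WT cells. Its difference in response of -1.74 was not called (ratio 4.87). REL, NFKB2, NFKBIE, BIRC3 and FOXO1 are in the table through their WT change on activation alone. That change is part of each difference, so the selection favours a smaller response in HuRKO cells.

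The genes most like each member were found by the largest absolute difference between log2 changes over the 4 comparisons, which rest on 4 groups, among 1764 eligible genes. Several members had close neighbours. GLI3, a transcription factor of hedgehog signalling, was within 0.16 of BOK, followed by HR and F2R at 0.34 and 0.40. ARMC9 was within 0.23 of BIK, and LRRK1 and MGLL within 0.23 and 0.33. DOCK6 was within 0.31 of BMF, KLHL24 within 0.37 and the antisense RNA gene LPP-AS2 within 0.39. RASSF8, VIPR2 and TMEM151B were within 0.29, 0.42 and 0.46 of HRK, and FBLN2, SELPLG and FAM46C within 0.40, 0.44 and 0.45 of BID. BCL2A1 and DAPK1 had no gene within 0.5 on the log2 scale, whereas BIK had 18, BMF 9, HRK and BOK 6 each and BID 5. The nearest to BCL2A1 was IL21R, an interleukin receptor, at 0.58, with levels of 617 in activated HuRKO and 7856 in activated WT cells, followed by LPL at 0.72 and ENTPD2 at 0.78. LPL and ENTPD2 were below the floor in both resting groups, so their distances are uncertain. The nearest to DAPK1 was STEAP1 at 0.81, then DZIP1 at 0.85 and TMEM17 at 0.90.

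The 4 comparisons share libraries, and the full set of 4 calls of each member was shared with other listed genes to different degrees. BIK and BCL2A1 had the same calls, lower in activated HuRKO cells, higher on activation in both genotypes and not called at rest, and 288 further genes including the partner shared them, or 11.1% of the table. BMF was higher in all 4 comparisons, as were 126 other genes. HRK and BOK were higher in HuRKO cells in both states and not called on activation, a set of calls that each shared with 90 genes. BID shared its calls with 50 genes. DAPK1, lower in all 4 comparisons, shared its calls with 26 genes, or 1.01% of the table, the smallest number among the 7.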

How the data were processed

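RNA-seq of 12 Jurkat libraries was read from 1 deposited file of group comparisons. The submitters' processing notes name TopHat, Bowtie2 and hg38 without versions. For the counting tool, strand setting and test, nothing is given in the sources used here. Per the file headers the deposited table holds a mean signal over all libraries (baseMean, taken as normalised counts), a log fold change and an FDR for 4 comparisons. The deposited fold changes are taken as log2, since rebuilt resting levels below the floor gather in steps on that base (up to 30.6% in a window 10% wide in WT cells, against 5.34% on base e). The FDR is a deposited p-value that the authors had adjusted. There were 0 unmapped columns of per-sample values.

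Group levels were solved from the mean and fold changes, which close around the 4 groups to within 7e-14. Calls are FDR below 0.05. An FDR is never below its p-value, so it bounds the standard error from above, and the difference between responses was tested on the smaller of 2 variance sums (normal test, 2-sided, Bonferroni over 58780 genes). The code of this test was tested on simulated data with normal errors, which does not check the normal approximation itself. Members and lists were chosen with earlier results of these data known. Positions, exon lengths and 3′ UTRs are from GENCODE 29 (2577 of 2587 IDs matched). The genes most like a member were the 3 nearest with a mean level of at least 10, without other members, chromosome Y genes, pseudogenes and clone names. From each list at most 5 listed genes were named. Nothing says that replicates are separate cultures, so FDRs may measure technical spread. No interval was computed, since depth is unknown, and the floor covers counting error only. Python 3.11.15, pandas 2.3.3 and scipy 1.17.1 were used. Alternative thresholds, a level filter, another base and another mean were tried.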

Additional observations from a re-analysis of the deposited data

Results flagged for a closer look

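In 4 genes the response to activation differed between HuRKO and WT cells by the bounded test of the difference itself. The differences, HuRKO minus WT on the log2 scale, were 1.85 for BMF, 1.10 for BID, -2.03 for BIK and -1.93 for DAPK1. BMF rose further and DAPK1 fell further in HuRKO cells, whereas BIK rose less and BID fell less. BIK is in the table through its WT change on activation alone, and that change is part of its difference. The changes that brought BMF into the table all involve activated HuRKO cells and are part of its difference too. No value per library was used, so single libraries could not be examined.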

How the results depend on the processing

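With an FDR below 0.01 every count of called members stayed within 1.5 times its value. Members higher in HuRKO cells at rest numbered 2 in place of 3, because HRK had an FDR of 0.012. Where both group levels had to reach 10, members higher in HuRKO cells numbered 2 in place of 4 after activation and 1 in place of 3 at rest, since HRK and BOK were left out by this filter. With calls of at least 2-fold, 1 in place of 2 members was lower on activation in WT cells, because the fall of DAPK1 was 1.35-fold. Members higher in HuRKO cells then numbered 3 in place of 4 after activation, without BID, and 2 in place of 3 at rest, without BMF. On activation in HuRKO cells 2 in place of 3 were higher, without BIK. For the difference between responses, 3 members in place of 4 passed with the larger sum of variances. A correction over the genes of the table is laxer than the one used, so all 4 had to pass it. The rebuilt levels depend on how the table is read. On base e, 15 of 28 levels moved by more than 1.5 times, and with a geometric mean over groups 20 of 28 did. Neither setting can change the order of groups within a gene. When likeness was measured by correlation of log2 levels, 3 of 7 members shared none of their 3 most similar genes with those named. No paired analysis was possible because the table holds no values per sample. For the same reason leaving out replicates and DESeq2 size factors were not run.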
